A study of Mus musculus with 9 samples.

Results

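The genes described here are 42 interferon-stimulated genes, read in the liver RNA of 9 mice. They were taken by symbol from a fixed list, through the Ensembl IDs of GENCODE M21, out of 54532 gene IDs in the deposited count table. All 42 were found, and all 42 were among the 14763 genes with enough counts to be tested. They were read as 30 type I-type genes, 11 interferon-gamma GTPases and Irf1, which answers to both kinds of interferon and was kept apart. Their counts ran from 9 (Gbp6 in 1 library) to 11587 (Iigp1), and no member had a count of 0 in any library.

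Interferons are secreted proteins that tell cells that a microbe, or nucleic acid where it should not be, has been met. Type I interferons act through a protein complex that contains STAT2 and IRF9, binds a DNA element called ISRE and switches on antiviral genes such as the IFIT, OAS and MX families, RSAD2 and ISG15. Interferon-gamma, made mainly by T and NK cells, acts through another element, GAS, and it strongly induces IRF1 and the large GTPases of the IRG and GBP families, which attack the vacuoles of intracellular microbes. The separation is one of degree, since many of these genes answer to both. In liver, hepatocytes, Kupffer cells and endothelial cells all respond to interferon, so a bulk level is a mixture of them.

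The study compared 3 groups of 3 livers from male ApoE-/- mice on a C57BL/6 background, a strain that lacks apolipoprotein E and so develops high plasma cholesterol. The normal diet group consists of replicates 4, 5 and 6. The HFD + PBS group (replicates 3, 4 and 6) ate a high-fat diet (HFD; 41% fat, 43% carbohydrate and 17% protein, 4700 kcal/kg) for 20 weeks from 4 weeks of age, then chow for 1 week. It received PBS into the abdomen at 25, 26 and 27 weeks and was killed at 29 weeks. The HFD + IgG1 group (replicates 5, 6 and 7) had the same diet and schedule, with 3 mg of a recombinant human IgG1 antibody in place of PBS; its target is unnamed in the labels. Injections and age at death are not given for the normal diet group, so in a comparison with it the diet cannot be told apart from injection or age. Livers were chosen for sequencing after Oil Red O staining and a triglyceride measurement. 1 label field reads IgG1, IgG2 and IgG3 for antibody replicates 5, 6 and 7, which their titles place in 1 group.

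Libraries held 16215194 to 18538463 counts. Of the 9, 3 go against their labels. HFD + IgG1 replicate 5 had 235888 counts of Apoe, the gene inactivated in this strain, against 225 to 1655 in the other 8. Normal diet replicate 5 and HFD + PBS replicate 6, labelled male, had high Xist and 0 counts of the Y-linked genes, against 2837 to 3385 Y-linked counts in the other 7. For the members, each comparison below is also given without these 3. Other genes of the pathway are given on all 9 libraries only. Hepatocyte markers were high throughout (6 markers with a summed level of 45820 to 158800 CPM). CPM values are edgeR's counts per 1000000 counts of library size, the library size being the total count times a TMM factor.

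Promoter sequences are shown first, since the members are grouped by the interferon they mainly answer to and the letters of both elements can be read in them. RefSeq (GRCm38.p6) gave a window of 250 bases before to 50 after the start for 34 of the 42 members. The ISRE core was searched as a pair of GAAA with any 2 bases between them, and the GAS core as TTCNNNGAA, on both strands (the GAS letters read the same on both). Each sequence below ends at or just before the start and leaves out bases that GENCODE M21 places in an exon. It is written 5′ to 3′ on the gene's own strand with matches in capitals, an ISRE on the other strand reading as a pair of TTTC with 2 bases between them. The first 4 are type I-type genes, Isg15 at chr4:156200819-156200978 (- strand), Ifit1 at chr19:34640744-34640870 (+ strand), Ifit3 at chr19:34583369-34583528 (+ strand) and Rsad2 at chr12:26456453-26456612 (- strand). The other 4 are GTPases, Igtp at chr11:58199396-58199555 (+ strand), Tgtp1 at chr11:48992259-48992406 (- strand), Tgtp2 at chr11:49064213-49064372 (- strand) and Gbp3 at chr3:142559884-142560025 (+ strand).
Isg15: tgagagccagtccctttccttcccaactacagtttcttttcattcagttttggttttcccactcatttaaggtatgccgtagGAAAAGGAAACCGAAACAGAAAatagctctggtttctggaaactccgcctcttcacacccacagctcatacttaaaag
Ifit1: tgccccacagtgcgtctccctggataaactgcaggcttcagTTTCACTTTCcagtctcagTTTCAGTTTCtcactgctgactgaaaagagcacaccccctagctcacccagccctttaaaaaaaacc
Ifit3: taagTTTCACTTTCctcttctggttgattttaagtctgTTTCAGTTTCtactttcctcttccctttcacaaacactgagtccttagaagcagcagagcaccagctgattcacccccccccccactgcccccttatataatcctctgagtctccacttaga
Rsad2: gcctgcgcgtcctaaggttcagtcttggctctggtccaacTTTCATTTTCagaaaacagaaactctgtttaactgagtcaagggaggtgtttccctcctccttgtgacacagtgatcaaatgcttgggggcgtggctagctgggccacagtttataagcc
Igtp: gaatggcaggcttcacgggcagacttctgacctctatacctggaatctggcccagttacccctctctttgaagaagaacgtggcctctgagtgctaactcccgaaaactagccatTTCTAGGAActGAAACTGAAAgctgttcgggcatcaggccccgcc
Tgtp1: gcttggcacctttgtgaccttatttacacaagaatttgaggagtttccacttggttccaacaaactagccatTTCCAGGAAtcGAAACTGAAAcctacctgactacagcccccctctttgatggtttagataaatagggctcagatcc
Tgtp2: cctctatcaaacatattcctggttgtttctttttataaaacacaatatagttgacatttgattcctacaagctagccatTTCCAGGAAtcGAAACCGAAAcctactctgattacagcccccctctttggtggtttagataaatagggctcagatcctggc
Gbp3: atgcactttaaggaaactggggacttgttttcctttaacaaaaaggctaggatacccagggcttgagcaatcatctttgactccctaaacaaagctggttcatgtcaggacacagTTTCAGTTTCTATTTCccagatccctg

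In Isg15 3 overlapping matches form 1 run, Ifit1 and Ifit3 each hold a pair of separate ISRE matches, and Rsad2 holds 1. In Igtp, Tgtp1 and Tgtp2 a GAS match stands directly before the ISRE match, with a gap of 2 bases between them. Irgm2 had the same gap of 2 bases in its window. Over the 34 members with a window, 23 (67.6%) held an ISRE match, against 3.99% of the 27025 genes in the table. The share was 62.5% of 24 type I-type genes and 88.9% of 9 GTPases. A GAS match was in 16.7% of the 24 type I-type genes, in 55.6% of the 9 GTPases and in 9.55% of all genes. Both motifs stood in 5 of the 9 GTPases, 3 of the 24 type I-type genes and 0.54% of all genes. A match describes letters in a window and is not a bound site.

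In no comparison did a member pass edgeR's quasi-likelihood test at an adjusted p of 0.05, and neither did any other of the 14763 genes (percent called 0 in each of the 3 comparisons). With HFD + IgG1 replicate 6 left out, edgeR called 576, 2356 and 6 genes in the order of the comparisons below, of which 0 were members. Some other edgeR settings, given at the end, also called genes. DESeq2 on all libraries called 1184, 1265 and 111 genes, of which 2, 0 and 0 were members. The pattern in the members lay between libraries. Type I-type genes were at their lowest in 1 PBS-injected liver, HFD + PBS replicate 4. GTPases were at their highest in normal diet replicate 5 or HFD + PBS replicate 3. The 3 antibody livers lay close to each other and below the normal diet mean for most members. With no gene called, the direction and size of each difference below are descriptions of these 9 libraries.

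HFD + PBS replicate 4 had the lowest level of 9 libraries for 24 of the 30 type I-type genes (80%), against 13.7% of all genes tested. Among the GTPases it was lowest for 4 of 11 (36.4%). The count was 24 under each of 3 other scalings. The median type I-type gene was 2.87 times as high in the median of the other 8 libraries as in this one, and 18 of 30 were over 2 times as high. For the GTPases the median ratio was 1.24, and 3 of 11 were over 2. On the log2 scale, the median difference of the type I-type genes from the normal diet mean was -1.76 in this library, and -0.92 to 0.31 in the other 8. For all genes it lay between -0.01 and 0.01 in every library.

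**Figure D1:**
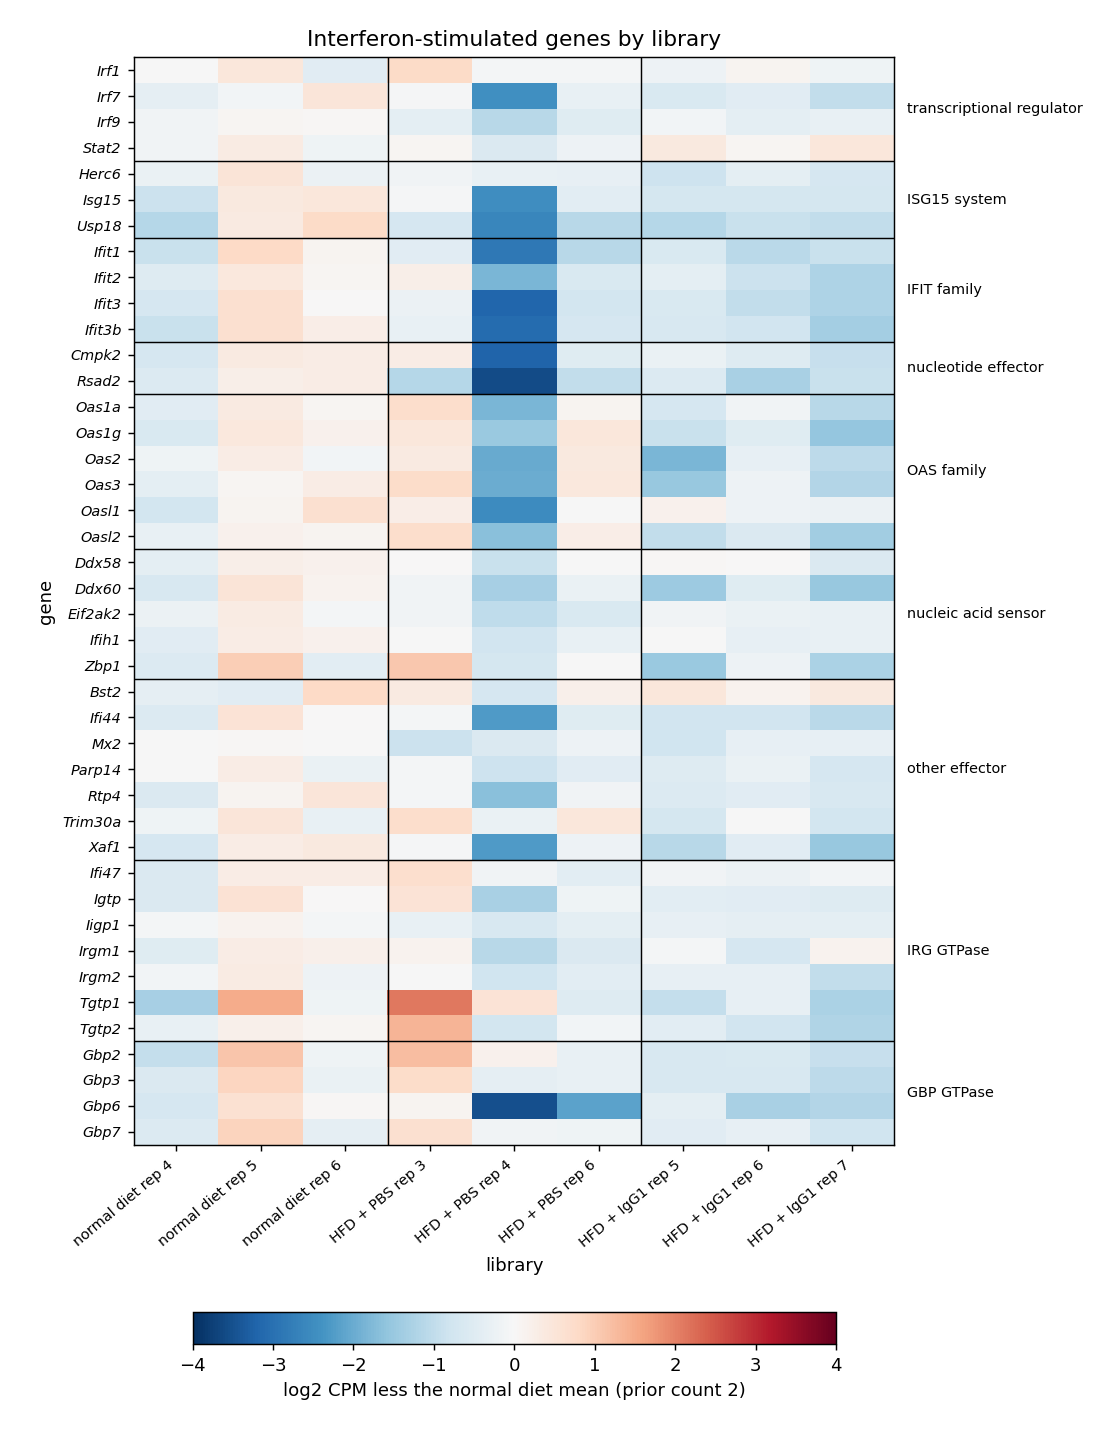
Each row is a member and each column a library; colour gives log2 CPM less the normal diet mean of that gene (prior count 2), blue for lower and red for higher. The dark blue column in the upper blocks is HFD + PBS replicate 4, lowest of 9 for 24 of the 30 type I-type genes.

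The IFIT proteins bind foreign RNA and block its translation. Ifit1 (ENSMUSG00000034459, mm10 chr19:34640871-34650009) was at 10.5, 34.3 and 21.3 CPM in normal diet replicates 4, 5 and 6. In HFD + PBS its levels were 14.4, 2.63 and 9.18 CPM (replicates 3, 4 and 6), and it was at 12.8, 9.25 and 10.5 CPM in HFD + IgG1 replicates 5, 6 and 7. The low value rests on 46 counts (95% exact Poisson interval 33.7 to 61.4, counting error only), and the groups overlap. Ifit3 (chr19:34583531-34588731) was at 18.7, 45.9 and 30.04 CPM on normal diet, at 25.2, 3.20 and 17.8 CPM in HFD + PBS and at 19.3, 14.96 and 12.5 CPM in HFD + IgG1. Its near copy Ifit3b was at 3.24, 9.57 and 7.38 CPM on normal diet, at 4.95, 0.629 and 3.82 CPM in HFD + PBS and at 3.85, 3.58 and 2.30 CPM in HFD + IgG1, the low value being 11 counts (5.49 to 19.7). Of the 50-base stretches of Ifit3, 51.2% also occur in Ifit3b, so the split of reads between them is uncertain. All 4 IFIT genes were highest in normal diet replicate 5 and lowest in HFD + PBS replicate 4, where their median difference from the normal diet mean was -2.96.

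Rsad2 (viperin) and Cmpk2 are neighbours on chromosome 12 that make and supply an antiviral nucleotide. Rsad2 (ENSMUSG00000020641, chr12:26442746-26456452) was at 16.2, 28.1 and 28.9 CPM on normal diet, at 10.7, 1.89 and 11.97 CPM in HFD + PBS and at 16.3, 9.62 and 12.7 CPM in HFD + IgG1. Every HFD + PBS library lay below every normal diet library, and the antibody libraries overlapped both. Rsad2 had the widest range of the type I-type genes, 3.86 on the log2 scale. The median of the other 8 libraries over HFD + PBS replicate 4 was 7.68 for Rsad2 and 7.64 for Cmpk2, which had 27 counts there (17.8 to 39.3).

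ISG15 is a ubiquitin-like tag, HERC6 attaches it in mice and USP18 removes it and holds back receptor signalling. Isg15 (chr4:156199424-156200818) was at 6.66, 15.97 and 16.6 CPM on normal diet, at 11.7, 2.06 and 8.92 CPM in HFD + PBS and at 7.35, 7.43 and 7.37 CPM in HFD + IgG1. The antibody group's 3 values, 7.38 ± 0.041 CPM (SD, n = 3), lay within the range of both other groups. Usp18 (chr6:121245906-121270917) was at 7.08, 19.98 and 26.9 CPM on normal diet, at 9.85, 2.46 and 7.17 CPM in HFD + PBS and at 7.06, 8.44 and 7.91 CPM in HFD + IgG1. In normal diet replicate 4, both genes were at the level of the antibody livers. Herc6 (chr6:57581000-57664632) behaved differently, at 12.7, 21.9 and 13.2 CPM on normal diet, 14.1, 12.5 and 12.3 CPM in HFD + PBS and 8.71, 11.7 and 9.54 CPM in HFD + IgG1. All 3 antibody values lay below all 6 others.

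The OAS enzymes sense double-stranded RNA and start its degradation by RNase L. Oas1a (chr5:120896256-120907521) was at 9.47, 16.9 and 13.9 CPM on normal diet, at 21.5, 3.60 and 14.0 CPM in HFD + PBS and at 8.13, 11.9 and 5.98 CPM in HFD + IgG1. The OAS genes were low in HFD + PBS replicate 4 like the IFIT genes, with a median difference of -1.91. They differed in the other PBS livers, with medians of 0.57 in replicate 3 and 0.33 in replicate 6, where the IFIT median was -0.27 and -0.70. In antibody replicates 5, 6 and 7 the OAS median was -0.94, -0.27 and -1.14. Oas1a shares 57.6% of its 50-base stretches with Oas1g, so these 2 members are not separate evidence. The differences between families were not tested.

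**Figure D2:**
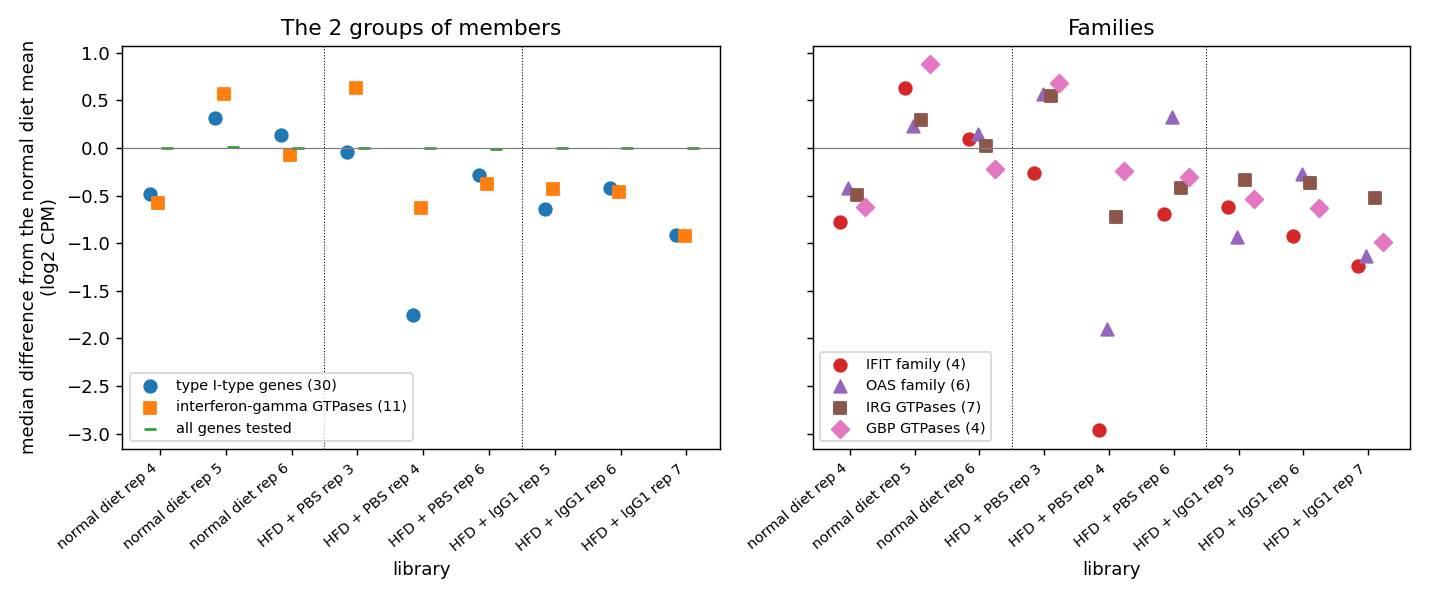
Each point is the median, over the genes of a set, of log2 CPM less the normal diet mean, by library; the left panel shows the 2 groups of members beside all genes tested, and the right panel shows families. The type I-type median is -1.76 in HFD + PBS replicate 4 while the GTPase median there is -0.63, and the IFIT median is -2.96.

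Of the 4 transcription factors among the members, Irf7 had the widest range, 2.95 on the log2 scale, against 1.02 to 1.21 for the other 3. Irf7, the factor that raises interferon-alpha output, was at 81.2, 96.7 and 149 CPM on normal diet, at 102, 19.2 and 86.3 CPM in HFD + PBS and at 68.4, 77.7 and 53.0 CPM in HFD + IgG1. Irf9 (ENSMUSG00000002325, chr14:55603571-55610030), the DNA-binding part of the type I complex, was at 48.9, 56.6 and 54.8 CPM on normal diet, at 40.8, 24.6 and 38.2 CPM in HFD + PBS and at 49.6, 40.9 and 43.6 CPM in HFD + IgG1. The HFD + PBS values lay below all values of the other groups, the closest pair being 40.84 and 40.88 CPM. Stat2 (ENSMUSG00000040033, chr10:128270559-128292849), its partner, was at 52.5, 71.8 and 50.9 CPM on normal diet, at 61.2, 38.9 and 50.6 CPM in HFD + PBS and at 75.9, 61.4 and 78.9 CPM in HFD + IgG1. Irf1 was at 31.2, 43.1 and 22.8 CPM on normal diet, at 52.9, 29.7 and 29.7 CPM in HFD + PBS and at 27.3, 33.6 and 28.0 CPM in HFD + IgG1. Irf1 was highest in HFD + PBS replicate 3, and its groups overlap in all 3 comparisons.

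Among the remaining type I-type genes, Ddx58 (RIG-I), Ifih1 (MDA5) and Ddx60 take part in cytosolic RNA sensing, Eif2ak2 encodes the kinase PKR and Zbp1 senses nucleic acid in the Z form. Their median in HFD + PBS replicate 4 was -0.90. Ddx60 (chr8:61928087-62038244) was at 10.6, 23.8 and 18.6 CPM on normal diet, at 15.2, 6.58 and 13.8 CPM in HFD + PBS and at 6.07, 12.02 and 5.80 CPM in HFD + IgG1. Its level in 2 antibody livers was below that in HFD + PBS replicate 4. The 7 other effectors had a median of -0.82 in HFD + PBS replicate 4, which was their lowest library for 5 of the 7. Bst2 (tetherin), which holds budding virus at the cell surface, had the highest level per length of the type I-type genes, 132 CPM per kb, against 21.6 for Irf7. Bst2 was at 83.5, 78.03 and 185 CPM on normal diet, at 136, 67.2 and 122 CPM in HFD + PBS and at 146, 118 and 138 CPM in HFD + IgG1. Parp14, an ADP-ribosyltransferase, was at 94.1, 116 and 78.8 CPM on normal diet, at 90.7, 53.6 and 69.1 CPM in HFD + PBS and at 66.3, 79.9 and 59.4 CPM in HFD + IgG1. Mx2 had the narrowest range, 0.90 on the log2 scale.

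The IRG GTPases load onto or regulate loading onto microbial vacuoles. Iigp1 (ENSMUSG00000054072, chr18:60376027-60392634) was the most abundant member per length after Bst2, at 84.1 CPM per kb, and also had the narrowest range of the GTPases, 0.77 on the log2 scale. It was at 554, 645 and 555 CPM on normal diet, at 471, 377 and 449 CPM in HFD + PBS and at 462, 453 and 442 CPM in HFD + IgG1. All 6 high-fat diet livers lay below all 3 normal diet livers. Irgm1 was at 52.8, 91.3 and 85.0 CPM on normal diet, at 82.4, 34.3 and 49.8 CPM in HFD + PBS and at 70.9, 47.0 and 81.6 CPM in HFD + IgG1. Irgm2, at 25.5 CPM per kb, was at 106, 143 and 97.8 CPM on normal diet, at 111, 65.6 and 84.4 CPM in HFD + PBS and at 90.6, 90.1 and 57.9 CPM in HFD + IgG1. Igtp (Irgm3; chr11:58199556-58207591) was at 28.6, 63.6 and 43.6 CPM on normal diet, at 62.9, 17.3 and 38.4 CPM in HFD + PBS and at 31.8, 31.2 and 29.9 CPM in HFD + IgG1. Of these 4 genes, Iigp1, Irgm1 and Igtp were lowest in HFD + PBS replicate 4, and Irgm2 in HFD + IgG1 replicate 7. Igtp and Irgm2 overlap on the same strand, so some of their reads could be assigned to either.

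Tgtp1 and Gbp2 were not low in HFD + PBS replicate 4. Tgtp1 (chr11:48985327-48994172) was at 2.32, 17.2 and 5.34 CPM on normal diet, at 26.4, 8.81 and 4.18 CPM in HFD + PBS and at 3.07, 4.76 and 2.42 CPM in HFD + IgG1. Tgtp2 was at 4.34, 6.18 and 5.70 CPM on normal diet, at 13.9, 3.20 and 4.90 CPM in HFD + PBS and at 3.93, 3.10 and 2.23 CPM in HFD + IgG1. Tgtp1 and Tgtp2 are near copies (79.4% of the 50-base stretches of Tgtp1 occur in Tgtp2), so the split between them is uncertain and HFD + PBS replicate 3 is high in both. Gbp2 (chr3:142620602-142638008), a guanylate-binding protein that coats vacuoles, was at 8.67, 36.6 and 14.99 CPM on normal diet, at 40.1, 19.2 and 13.7 CPM in HFD + PBS and at 10.7, 11.01 and 8.82 CPM in HFD + IgG1. The median of the other 8 libraries over HFD + PBS replicate 4 was 0.644 for Gbp2 and 0.507 for Tgtp1, so both were above the middle of the other libraries there. Gbp6 was the exception among the GBP genes, at 4.397, 10.8 and 7.26 CPM on normal diet, at 7.60, 0.515 and 1.496 CPM in HFD + PBS and at 5.28, 2.78 and 3.08 CPM in HFD + IgG1. Its low value is 9 counts (4.12 to 17.1), and 65% of its 50-base stretches also occur in the overlapping gene model Gm43302.

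Each of the 11 GTPases had its highest level in either normal diet replicate 5 (7 genes) or HFD + PBS replicate 3 (4 genes). Among all genes, normal diet replicate 5 was highest for 8.98% and HFD + PBS replicate 3 for 20.3%. The count was 11 under each of 3 other scalings. Normal diet replicate 5 is 1 of the libraries at odds with its label. Among the 6 libraries that match their labels, 9 of the 11 GTPases were highest in HFD + PBS replicate 3 (against 24.4% of all genes) and 2 in normal diet replicate 6 (against 14.4%). Among all 9 libraries, normal diet replicate 5 was also highest for 14 of the 30 type I-type genes (46.7%).

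**Figure D3:**
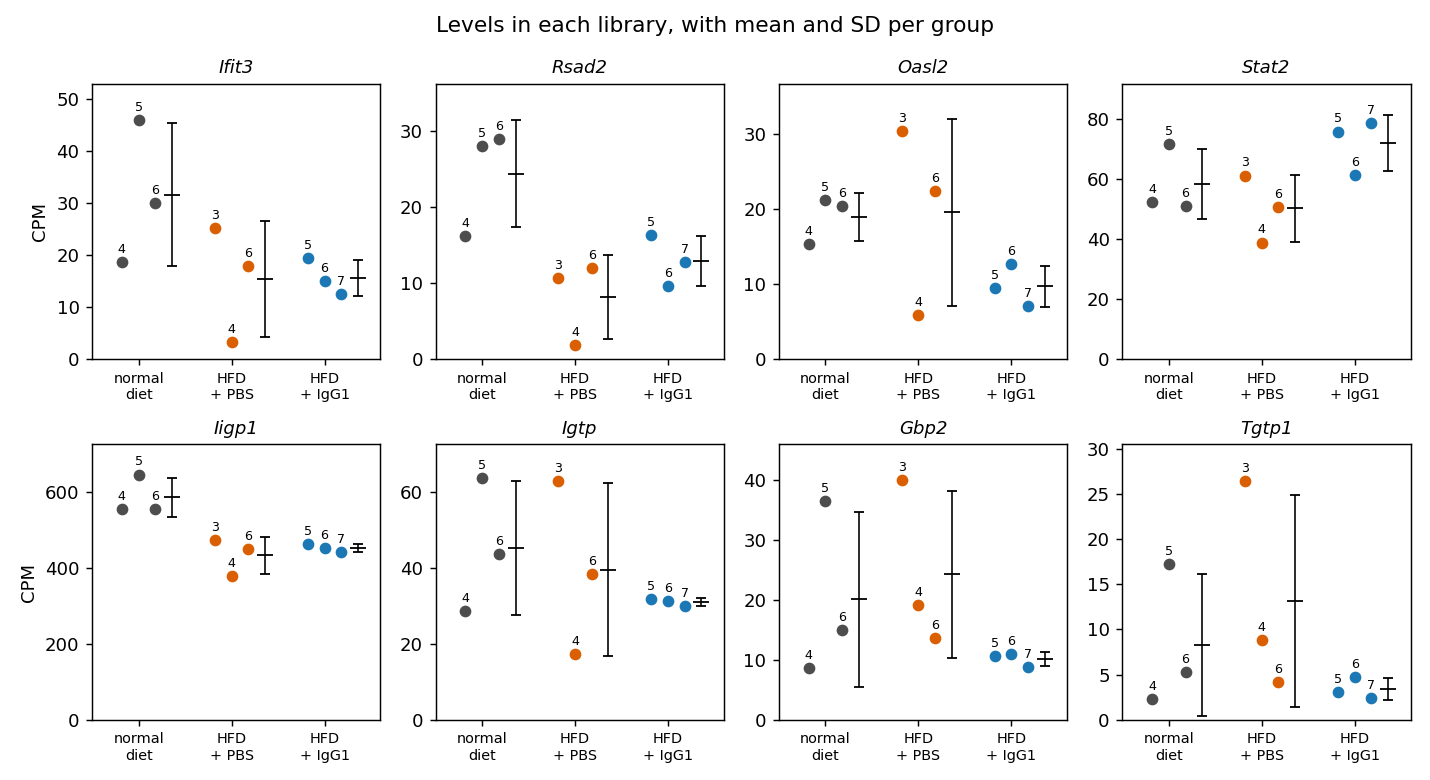
CPM of 8 members in each library, with the replicate number over each point and, beside the points, the group mean and SD over 3 libraries; each panel has its own axis from 0. Ifit3, Rsad2, Oasl2, Stat2, Iigp1 and Igtp are lowest in HFD + PBS replicate 4. Gbp2 and Tgtp1 are highest in HFD + PBS replicate 3 and normal diet replicate 5, and Iigp1 and Igtp in normal diet replicate 5. Stat2 is the only gene of the 8 whose antibody mean is above both other means.

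HFD + PBS against normal diet asks what the long high-fat diet, with PBS injections, did in this strain. Fold changes were below 0 for 32 of the 42 members, against 50.3% of all genes. The median was -0.53 for the type I-type genes and -0.03 for the GTPases, beside -0.00 for all genes tested. Irf9 was at -0.63 (SE 0.19) on the log2 scale with an adjusted p of 0.135 by edgeR, the lowest of the members. Rsad2 was at -1.57 (SE 0.56, edgeR adjusted p = 0.178), Usp18 at -1.46 (SE 0.54, edgeR adjusted p = 0.186) and Ifit1 at -1.33 (SE 0.58, edgeR adjusted p = 0.233). At an unadjusted p of 0.05, 6 members were lower, 14.3% against 11.4% of all genes, and 0 were higher, against 9.41%. The 6 were Irf9, Ifit1, Rsad2, Usp18, Eif2ak2 and Iigp1. In 4 members (Irf9, Rsad2, Mx2 and Iigp1) every HFD + PBS library was below every normal diet library, 9.52% against 15.3% of all genes. Neither share is far above its background. The lower members at that unadjusted p numbered 16 under a replicate block, against 4.37% of all genes, 12 without HFD + PBS replicate 3 (against 7.77%) and 0 without the 3 libraries against their labels (against 7.58%), where 3 were higher (against 7.52%). The block also takes HFD + PBS replicate 3 out of the contrast, since no other library has its number.

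The type I-type median of this comparison rests in large part on HFD + PBS replicate 4. Without it the median was -0.17 and Irf9 was at -0.41, and without normal diet replicate 5 the median was -0.35 and Ifit1 was at -0.86. The GTPase median had no settled sign, at -0.44 when HFD + PBS replicate 3 was left out and 0.20 when normal diet replicate 5 was. It was also above 0, at 0.01, under RLE and upper-quartile factors, and at 0.44 when the 3 libraries against their labels were dropped. On the other 6 libraries the type I-type median was -0.38, Irf9 was at -0.63, Rsad2 at -1.80, Usp18 at -1.42 and Ifit1 at -0.86, with 29 of 42 members below 0. Under DESeq2, Rsad2 and Iigp1 passed.

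HFD + IgG1 against HFD + PBS asks what the antibody did on the same diet. The median was -0.05 for the type I-type genes and -0.35 for the GTPases, beside 0.04 for all genes, and 26 of 42 members were below 0, against 47.2% of all genes. Stat2 was at 0.52 (SE 0.21, edgeR adjusted p = 0.173), and its 3 antibody libraries lay above the 3 PBS libraries, the closest pair being 61.4 and 61.2 CPM. Trim30a, a TRIM protein of the innate response, was at 21.3, 34.0 and 19.5 CPM on normal diet, at 39.1, 20.2 and 33.3 CPM in HFD + PBS and at 14.8, 24.1 and 14.5 CPM in HFD + IgG1. Its log2 fold change was -0.79 (SE 0.31, edgeR adjusted p = 0.173), with overlap. Gbp2 was at -1.26 (SE 0.54, edgeR adjusted p = 0.202), all antibody libraries being below all PBS libraries. Tgtp2 was at -1.25 (SE 0.50, edgeR adjusted p = 0.175) and Tgtp1 at -1.94 (SE 0.84, edgeR adjusted p = 0.204). At an unadjusted p of 0.05, 1 member was higher (2.38%, against 12.6% of all genes) and 4 were lower (9.52%, against 11.6%). Groups did not overlap for 2 members that were higher, Irf9 and Stat2 (4.76% against 15.3%), and for 4 that were lower, Gbp2, Gbp3, Gbp7 and Herc6 (9.52% against 11.2%).

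The 2 PBS livers at the extremes pull this comparison in opposite directions. Without HFD + PBS replicate 3 the type I-type median was 0.25 and the GTPase median 0.06. Without HFD + PBS replicate 4 they were -0.49 and -0.75. Tgtp2 was at -0.42, Tgtp1 at -0.94 and Gbp2 at -0.71 without HFD + PBS replicate 3, and Stat2 at 0.32 without HFD + PBS replicate 4. The type I-type median was also above 0, at 0.11, without HFD + PBS replicate 6 or under limma-voom. The lower members at an unadjusted p of 0.05 numbered 11 without HFD + PBS replicate 4, against 12.3% of all genes, and 0 without HFD + PBS replicate 3 (against 7%) or HFD + IgG1 replicate 7 (against 5.92%). On the 6 libraries that match their labels the medians were -0.05 for the type I-type genes and -0.54 for the GTPases, with Stat2 at 0.44, Trim30a at -0.66, Gbp2 at -1.62, Tgtp2 at -1.72 and Tgtp1 at -2.33. There the groups, of 2 libraries each, did not overlap for 6 members that were lower (14.3%, against 18.1% of all genes) and 3 that were higher (7.14%, against 22.9%).

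HFD + IgG1 against normal diet compares antibody-injected livers on the high-fat diet with the normal diet group, and shares libraries with both comparisons above. Here 40 of the 42 members were below 0, against 49.6% of all genes, with medians of -0.77 for the type I-type genes and -0.66 for the GTPases, beside 0.00 for all genes. The 2 members above 0 were Stat2 and Bst2. Herc6 was at -0.67 (SE 0.23) with an adjusted p of 0.611 by edgeR, the lowest of the members. Ddx60 was at -1.14 (SE 0.42, edgeR adjusted p = 0.635) and Parp14 at -0.49 (SE 0.22, edgeR adjusted p = 0.708). At an unadjusted p of 0.05, 2 members, Ddx60 and Herc6, were lower (4.76%, against 3.21% of all genes) and 0 were higher (against 3.83%). In 10 members all antibody libraries were below all normal diet libraries (23.8%, against 6.41% of all genes), and in 0 were they all above (against 5.54%). The 10 were Irf7, Oas2, Oasl2, Mx2, Ifi44, Herc6, Iigp1, Irgm2, Gbp3 and Tgtp2. They share libraries and in part reads, and are not 10 separate observations.

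The count of lower members at an unadjusted p of 0.05 varied widely with the fit, while 0 members had an adjusted p under 0.05 in any of them. It was 22 when only the 6 libraries compared were fitted, against 3.67% of all genes, 20 without HFD + PBS replicate 4 (against 3.89%), 19 under a replicate block (against 1.46%), 10 without HFD + PBS replicate 3 (against 3.62%) and 8 under DESeq2 (against 3.87%). It was 0 without normal diet replicate 5 (against 2.85%), HFD + IgG1 replicate 5 (against 2.74%) or the 3 libraries against their labels (against 1.95%). The replicate block takes HFD + IgG1 replicate 7 out of this contrast, since no other library has its number. The type I-type median stayed between -0.95 and -0.57 with each library left out. The GTPase median was -0.22 and Herc6 was at -0.37 without normal diet replicate 5. On the 6 libraries that match their labels the type I-type median was -0.61, the GTPase median -0.26, Herc6 at -0.30, Ddx60 at -0.71 and Parp14 at -0.32, with 40 of 42 members below 0, against 49.3% of all genes. The antibody libraries, now 2 against 2, were below the normal diet libraries in 16 members (38.1%, against 16.5% of all genes).

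**Figure D4:**
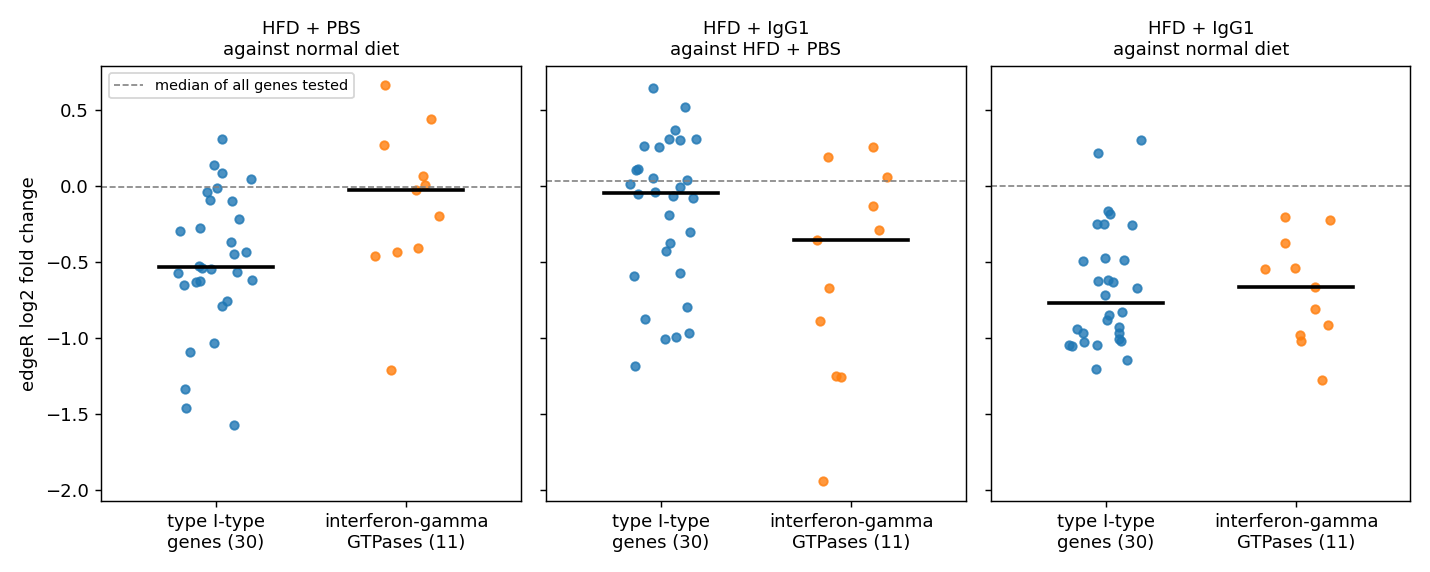
Each point is 1 member's edgeR log2 fold change in 1 of the 3 comparisons, type I-type genes in blue and GTPases in orange; the black bar is the median of the group and the dashed line the median of all genes tested. The bars are at -0.53 and -0.03, at -0.05 and -0.35, and at -0.77 and -0.66; no point passed the test.

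The antibody livers were also the most alike in these genes. The median SD of log2 CPM within a group was 0.278 over the 42 members in HFD + IgG1, 0.488 on normal diet and 0.925 in HFD + PBS. Over all genes tested the order was different, with 0.295 in HFD + IgG1, 0.273 on normal diet and 0.264 in HFD + PBS. The SD was smallest in HFD + IgG1 for 31 of the 42 members (73.8%, against 28.1% of all genes), and largest in HFD + PBS for 35 (83.3%, against 30.2%). Among the GTPases the SD was smallest in HFD + IgG1 for 9 of 11 over all 9 libraries. Without the 3 libraries against their labels, that number was 5 (45.5%, against 26.7% of all genes). The SD was then smallest on normal diet for 6 (54.5%, against 40.2%). The count of 31 was 23 when the 3 libraries against their labels were dropped and 21 without HFD + PBS replicate 4. Igtp, at 31.0 ± 0.989 CPM (SD, n = 3) in HFD + IgG1 against 39.5 ± 22.9 in HFD + PBS, is an example. The antibody livers were not alike in every respect, since their hepatocyte markers summed to 158800, 77440 and 122400 CPM.

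Other genes of the pathway, from lists not trimmed by value, place these levels. Of 20 interferon ligand genes, 0 had enough counts to be tested. Ifnb1, interferon-beta, had 0 counts in every library, which allows up to 3 counts in each. Ifng, interferon-gamma, had 2, 7 and 3 counts on normal diet, 8, 4 and 0 in HFD + PBS and 2, 0 and 1 in HFD + IgG1. The 2 libraries with the most Ifng counts are the 2 in which the GTPases were highest, at counts too low to compare.

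All 6 interferon receptor genes were tested and 0 passed. In HFD + PBS against normal diet 3 of the 6 were higher at an unadjusted p of 0.05 (Ifngr1, Il10rb and Ifnlr1), against 9.41% of all genes, and in HFD + IgG1 against HFD + PBS 5 of the 6 were lower, against 11.6%. Ifngr1, a chain of the interferon-gamma receptor, was at 34.3, 39.7 and 35.1 CPM on normal diet, at 69.7, 68.6 and 67.1 CPM in HFD + PBS and at 26.0, 52.7 and 26.8 CPM in HFD + IgG1. The PBS values lay above all 6 others. Of all genes tested, 13% had every PBS library above every normal diet library, and 11.2% had every antibody library below every PBS library. On the log2 scale Ifngr1 was at 0.91 for PBS against normal diet (SE 0.25, adjusted p = 0.115 by edgeR). It was at -0.96 for the antibody against PBS (SE 0.25, adjusted p = 0.14 by edgeR). HFD + PBS replicates 3 and 4 had the highest and lowest medians of the 3 PBS libraries, for GTPases and type I-type genes alike. Their Ifngr1 levels were close, and the part of the receptor in the member levels was not tested. Ifnar1, a chain of the type I receptor, was at 57.8, 54.2 and 53.3 CPM on normal diet, at 48.4, 47.5 and 50.8 CPM in HFD + PBS and at 46.7, 52.6 and 61.2 CPM in HFD + IgG1.

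Of 9 JAK-STAT genes, 0 passed in any comparison. Jak1, a kinase of both receptors, was at 219 CPM in HFD + PBS replicate 4, the highest of the 9 libraries. Socs3, an inhibitor of cytokine receptors that is not specific to interferon, was at 149 CPM in HFD + PBS replicate 4 and at 6.14 to 52.4 CPM in the other 8.

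Of 25 type I-type targets that are not members, 13 were lowest in HFD + PBS replicate 4, against 13.7% of all genes. Their median difference from the normal diet mean there was -0.81. Another 8 were lowest in HFD + IgG1 replicate 7 (against 14.2% of all genes), where the median was -0.58. Mx1, an antiviral GTPase of the type I response, was at 2.26, 4.23 and 5.10 CPM on normal diet, at 3.89, 0.972 and 4.23 CPM in HFD + PBS and at 3.43, 2.35 and 1.27 CPM in HFD + IgG1. Of 19 tested interferon-gamma targets that are not members, 13 were highest in HFD + PBS replicate 3, against 20.3% of all genes. Only 2 of the 19 were highest in normal diet replicate 5, against 8.98% of all genes. In HFD + PBS replicate 4, 4 of the 19 were lowest, against 13.7%. In these lists 0 genes passed in any comparison.

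Markers of other cells differed between the same libraries. In bulk liver, fewer cells of a type and less RNA per cell cannot be told apart. In HFD + PBS replicates 3, 4 and 6, the summed level of 10 T and NK cell markers was 79.0, 22.8 and 33.4 CPM, against 15.6, 35.96 and 18.5 CPM on normal diet and 15.2, 23.6 and 12.1 CPM in HFD + IgG1, with none of the 10 at 0. HFD + PBS replicate 3 and normal diet replicate 5, the libraries with the highest GTPases, also had the highest T and NK cell sums. The part of these cells in the GTPase levels was not tested. Neutrophil markers (8 genes) summed to 36.4 to 186 CPM on normal diet, 445 to 3955 CPM in HFD + PBS and 13.5 to 613 CPM in HFD + IgG1, with Ly6g at 0 in antibody replicates 5 and 7. Recruited macrophage markers (8 genes) summed to 359 to 462, 786 to 1770 and 167 to 835 CPM in the same order, with none at 0. HFD + PBS replicate 4 was not low in resident cells, with 80260 CPM of hepatocyte, 2533 of Kupffer cell and 577 of endothelial markers, beside 45820 to 158800, 725 to 3111 and 275 to 504 CPM in the other 8.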

How the data were processed

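Liver RNA was sequenced by the authors from 9 livers; per the labels' protocols, RNA extracted with Trizol was used, 1 µg of it for each NEBNext Ultra library. The authors deposited raw gene counts, whole numbers by Ensembl ID with no scaling applied. The submitters' processing notes name mm10 and Bowtie 0.12.2 without their roles; for the counting step, program, annotation and strand setting were not given in the sources used here. Reads of overlapping or near-identical genes may be split in an unknown way.

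Counts were analysed in R 4.3.3 with edgeR 4.0.16: TMM factors, filterByExpr by group with its minimum count of 10 and total of 15, 1 model of group means over 9 libraries (6 residual degrees of freedom), robust quasi-likelihood tests, two-sided, and Benjamini-Hochberg adjustment over 14763 genes at 0.05. Standard errors came from the F statistic, as unshrunk log2 fold change divided by its square root. Log2 CPM used a prior count of 2. A 3 against 3 exact test cannot go below p = 0.1, so none was made. Nothing in the labels says more of the replicates than that they are separate livers. Alternatives were DESeq2 1.42.0, limma-voom (limma 3.58.1), other scalings and filters, a replicate block and each library left out. Others kept only the 6 libraries compared, the 6 that match their labels, or only the antibody library labelled IgG1. The procedure was tested on simulated data.

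The members and lists were chosen with earlier results of these data known, so they are described by counts and medians with no test over a list. Per-library values are given for the 3 members with the smallest p in each comparison, the 3 with the widest range and the 2 most abundant of each group, and 12 members named whatever their values. The comparison of spread within groups, the ranks of libraries under other scalings, the counts of groups without overlap on 6 libraries and the naming of Il10rb and Dhx58 were chosen after their values were seen.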

Additional observations from a re-analysis of the deposited data

How the results depend on the processing

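With 3 libraries a group and 0 genes called, precision is limited by the spread between livers. Of the members, 2 (Rsad2 and Iigp1) passed in HFD + PBS against normal diet under DESeq2, Rsad2 at -1.54 (DESeq2 adjusted p = 0.0448), and 0 in the other comparisons. Over all genes DESeq2 called 1184, 1265 and 111 in the 3 comparisons, in the order of the text, where edgeR and limma-voom called 0. The cause was not tested. Leaving out 1 library gave 0 called members in every comparison, although without HFD + IgG1 replicate 6 edgeR called 576, 2356 and 6 genes. Without HFD + PBS replicate 6 it called 14, 0 and 4 genes. With no filter on low counts edgeR called 274, 57 and 6 genes, of which 0 were members. With only the 6 libraries compared it called 184, 0 and 3, of which 0 were members. Igtp in HFD + PBS against normal diet, at -0.19, was at 0.19 when the 3 libraries against their labels were dropped. With 1 library left out it was lowest at -0.67 (HFD + PBS replicate 3 out) and highest at 0.19 (HFD + PBS replicate 4 out), and it also turned, at 0.13, when normal diet replicate 5 was out. An ISRE motif lengthened by the letters CT was in 38.2% of the 34 promoters, and in 0.303% of those of all genes; the shorter one was in 67.6% and 3.99%. The number of members with the smallest spread in HFD + IgG1 was 28 to 31 under other scalings and 21 to 34 with each library left out.

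The median of type I-type genes with each library left out ran from -0.75 to -0.17, from -0.49 to 0.25 and from -0.95 to -0.57 in the 3 comparisons, and that of GTPases from -0.44 to 0.20, from -0.75 to 0.06 and from -0.90 to -0.22. The GTPase median of HFD + PBS against normal diet was above 0 also under DESeq2, RLE, upper-quartile and limma-voom settings. A replicate block on the numbers in the titles gave 0 called members (lowest member adjusted p by edgeR 0.718, 0.952 and 0.943), with medians of -0.78, -0.01 and -0.97 for type I-type genes and -0.29, -0.29 and -0.80 for GTPases. HFD + PBS replicate 3 and HFD + IgG1 replicate 7 share their number with no other library. Under the block they therefore add nothing to a difference between groups. Same-numbered libraries correlated at -0.494 to 0.007 in their deviations from the group means, and differently numbered ones at -0.347 to 0.425. The same-numbered ones were thus not more alike. With so few pairs, this does not settle whether the numbers pair samples. With HFD + IgG1 replicate 5, the antibody library labelled IgG1, kept alone in its group, the medians against HFD + PBS were -0.02 for type I-type genes and -0.30 for GTPases. Against normal diet they were -0.73 and -0.50. Where 1 library remained in a group, as there, it was assumed to vary like the others.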

Other observations

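Among interferon-gamma targets that are not members, Gm4951, a predicted GTPase gene that shares 1.47% of the 50-base stretches of Iigp1, was lowest in HFD + PBS. It was at 165, 168 and 167 CPM on normal diet, at 93.0, 112 and 117 CPM in HFD + PBS and at 182, 129 and 160 CPM in HFD + IgG1. The HFD + PBS values lay below all 6 others, at -0.63 on the log2 scale (SE 0.16, adjusted p = 0.107 by edgeR) against normal diet and 0.55 (SE 0.16, adjusted p = 0.14 by edgeR) for the antibody against PBS. A separation in the same direction was found for 15.3% of all genes tested in either comparison. Cd274, the gene of PD-L1, was at 7.88, 14.3 and 8.70 CPM on normal diet, at 20.7, 9.15 and 11.8 CPM in HFD + PBS and at 5.57, 6.95 and 4.83 CPM in HFD + IgG1. All 3 antibody values lay below all 6 others (edgeR adjusted p = 0.14 against PBS and 0.676 against normal diet). Of all genes tested, 11.2% lay wholly below in the comparison with PBS and 6.41% in that with normal diet.

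The 5 members that sense nucleic acid had a median difference of -0.90 in HFD + PBS replicate 4. A separate list held 11 genes that sense nucleic acid or lead from it to interferon production. Their median difference from the normal diet mean in that library was 0.02. Of the 11, 1 was lowest there, against 13.7% of all genes tested. It was Dhx58, at 5.15 CPM in that library and 8.39 to 19.9 CPM in the other libraries, so not all of the list differed from the members. Ikbke, a kinase that activates IRF3 and IRF7, was at 20.3, 32.6 and 16.7 CPM on normal diet, at 50.1, 50.6 and 39.0 CPM in HFD + PBS and at 30.4, 44.5 and 35.0 CPM in HFD + IgG1. Tmem173, the gene of STING, was at 6.78, 7.68 and 4.80 CPM on normal diet, at 17.5, 10.6 and 9.08 CPM in HFD + PBS and at 5.49, 7.80 and 4.65 CPM in HFD + IgG1. Both had all 3 HFD + PBS values above all normal diet values, at edgeR adjusted p-values of 0.101 and 0.151. Such a separation was found for 13% of all genes tested. Of the 11 listed genes, 7 had a fold change above 0 in this comparison and 4 below.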
